A study of Homo sapiens with 12 samples.

Results

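Smooth muscle actin and 9 other contractile genes that serum response factor (SRF) is known to drive were followed across A375 cells, a human melanoma line, after treatment with a CDC7 kinase inhibitor, a BRPF bromodomain inhibitor, or both. The members were taken by name: ACTA2, ACTG2, TAGLN, CNN1, CNN2, MYL9, TPM1, TPM2, CALD1 and FLNC. All 10 were found among the 26475 entries of the expression table, and 9 had enough counts to be tested with 15353 genes in all; ACTG2 did not. Cells received DMSO (the vehicle), XL413 at 1 µM, OF1 at 1 µM, or XL413 and OF1 at 1 µM each (the combination), for 24 h, with 3 libraries per treatment. XL413 inhibits CDC7, a kinase that starts DNA replication, and OF1 inhibits the bromodomains of BRPF1, BRPF2 and BRPF3, scaffolds of histone acetyltransferase complexes. The design text calls the 3 libraries biological replicates, but nothing says that they are from separate cultures. Every p-value here is therefore set against library-to-library spread that may be technical.

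SRF is a transcription factor that binds a short DNA element, the CArG box, in the promoters of actin and actin-binding genes. Its cofactors of the MRTF family are held in the cytoplasm by unpolymerised actin and enter the nucleus when actin is driven into filaments. In smooth muscle and myofibroblasts the program supplies actin filaments, tropomyosin, calponin and myosin light chain, and part of it is also active in other adherent cells, including skeletal muscle precursors and many tumour lines.

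Promoters of the members were searched for the CArG box because that element links the family. The box is a 10-base site with CC and GG at its ends and 6 A or T bases between them, and it reads the same way on both strands. RefSeq promoters on GRCh38.p14, from 250 bases before to 50 bases after each annotated start, matched 8 of the 10 members by symbol, with 13 promoters in all. A full CArG box lay in promoters of 2 members, ACTG2 and CNN2, against 1.29% of all 35116 promoters and 1.6% of 27305 genes with any promoter that held one. A box with a single G or C in the A/T core lay in promoters of 2 others, ACTA2 and CALD1, against 6.94% of all promoters and 8.46% of genes. No CArG box of either form lay in the windows of CNN1, TPM1, TPM2 or FLNC. The stretches before the annotated start of 3 members are shown 5′ to 3′ on the gene's strand, with the boxes in capitals, to let the sites of a hardly detected gene (ACTG2) be compared with those of a gene that fell against both single inhibitors in the combination (ACTA2) and one that fell against DMSO (CNN2).
ACTA2, chr10:88952805-88952904, minus strand: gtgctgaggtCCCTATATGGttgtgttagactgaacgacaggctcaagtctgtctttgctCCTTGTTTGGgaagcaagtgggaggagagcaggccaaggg
ACTG2, chr2:73892888-73892974, plus strand: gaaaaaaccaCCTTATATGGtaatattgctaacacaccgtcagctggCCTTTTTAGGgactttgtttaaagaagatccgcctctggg
CNN2, chr19:1026509-1026568, plus strand: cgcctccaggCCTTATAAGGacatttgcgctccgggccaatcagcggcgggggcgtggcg
The ACTA2 sites begin 121 and 71 bases before the start of the second of its annotated promoters, each with 1 G or C in the core. The ACTG2 sites begin 110 and 73 bases before the start, and the CNN2 site begins 89 bases before it. These matches describe the letters of the windows and were not tied to binding.

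Levels in CPM (gene counts scaled by each library's TMM-adjusted total) differed widely between members. Per kilobase of transcript, taken as the median length of the GENCODE v29 coding transcripts, the order in DMSO libraries was TPM2 (250 ± 8.4 CPM per kb, SD, n = 3), TPM1 (195 ± 2.5), CALD1 (49.0 ± 0.24), CNN2 (35.2 ± 1.5), TAGLN (10.9 ± 0.89), MYL9 (7.29 ± 0.83), ACTA2 (5.85 ± 0.27), FLNC (3.29 ± 0.62), CNN1 (0.20 ± 0.085) and ACTG2 (0.074 ± 0.077). Neighbours in that order did not overlap between DMSO libraries except CNN1 and ACTG2. The order of means was the same in all 4 groups, but MYL9 overlapped ACTA2 in OF1 and in the combination. TAGLN overlapped MYL9, and CNN1 overlapped ACTG2, in the combination. TPM1 has 17 such transcripts of 0.485 to 3.957 kb, so its level per kilobase is the least certain. Transcripts of MYL9 (1.024 to 2.821 kb) and TAGLN (0.928 to 2.166 kb) also differ in length. The order of TAGLN, MYL9 and ACTA2 therefore rests on the median length taken.

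ACTG2, CNN1 and MYH11, smooth muscle isoforms at the far end of the program, were almost silent. ACTG2, the enteric smooth muscle actin, had 0 to 8 counts per library, and CNN1, the calponin of smooth muscle, had 4 to 23. MYH11, the smooth muscle myosin heavy chain, was at 0.079 ± 0.075 CPM in DMSO and did not pass the filter. Other late smooth muscle markers were present: of the 11 listed, MYH11 among them, 8 were tested. The 11 summed to 137 to 164 CPM in DMSO. The name smooth muscle is used here for the family and makes no statement about the cells. SOX10, a factor of the melanocyte lineage, was at 344 CPM in DMSO. MLANA and PMEL, pigment cell proteins, were under 1 CPM on average in DMSO.

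**Figure D1:**
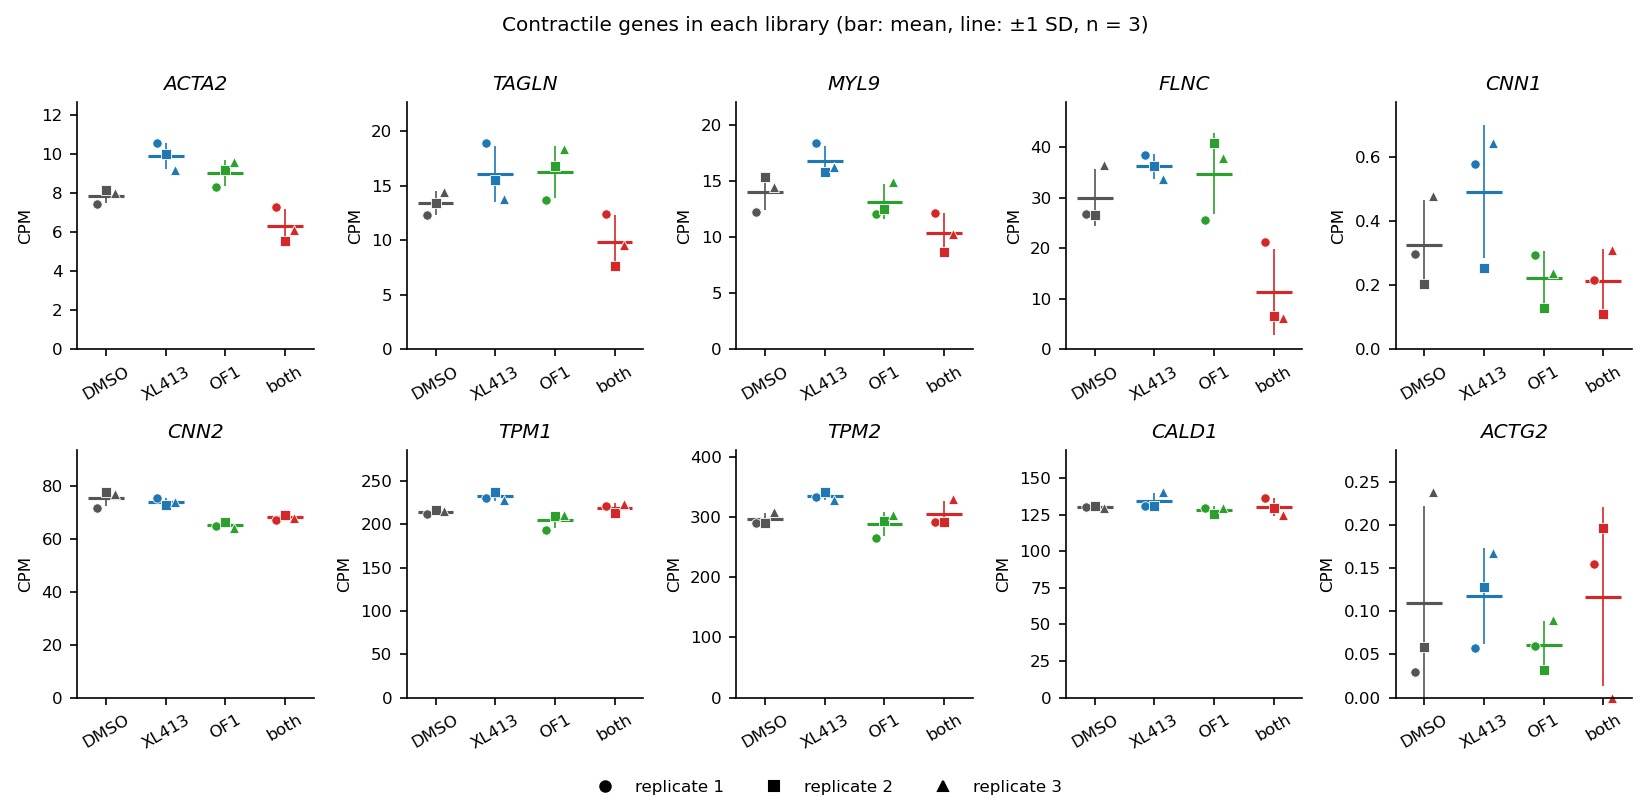
CPM (vertical axes, from 0) of the 10 contractile genes in each library of the 4 treatments; symbols mark replicate numbers, horizontal bars the mean and vertical lines 1 SD (n = 3). The means of ACTA2, TAGLN, MYL9 and FLNC are lowest in the combination (marked both), while CALD1 stays within a narrow band and ACTG2 stays under 0.25 CPM.

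Library depth ran from 30499559 to 36062138 counts. Genes of skeletal muscle were present in all libraries and varied inside groups: the summed level of 24 skeletal muscle fibre genes ran from 113 to 294 CPM in DMSO, 166 to 356 in XL413, 162 to 367 in OF1 and 39.3 to 127 in the combination, where 1 of the 24 was at 0. The mean log2 CPM of the 23 tested ones (the skeletal muscle score) was 1.15 in combination replicate 1, and -0.60 and 0.21 in combination replicates 2 and 3, the lowest of the 12 libraries. The 14 fibroblast genes summed to 901 to 1126 CPM in DMSO, 979 to 1091 in XL413, 955 to 1132 in OF1 and 392 to 833 in the combination, and none was at 0. The 12 melanocyte lineage genes summed to 454 to 521 CPM over all libraries, with TYR at 0 in all 12. The part of these other transcripts in the results was not tested, and in bulk RNA fewer cells of a type and less RNA per cell cannot be told apart. The score was lower in every combination library than in any XL413 or OF1 library. A fit with the score as a covariate therefore takes out part of the treatment difference. A call lost in such a fit cannot tell treatment from score.

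The members fell into sets by how much replicates varied; these sets were drawn after the values were seen. The biological coefficient of variation, the spread between replicates beyond counting noise, had a median of 5.09% over tested genes. It was 2.99% for CNN2, 3.33% for TPM1, 3.45% for CALD1 and 4.78% for TPM2. It was 28.1% for FLNC, above that of 97.1% of tested genes, 25.1% for CNN1, 12.6% for TAGLN, 9.33% for MYL9 and 6.78% for ACTA2. FLNC and TAGLN therefore needed larger differences to pass than the tropomyosins.

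XL413 alone against DMSO asks what CDC7 inhibition did. None of the 9 tested members passed (adjusted p under 0.05 in edgeR's quasi-likelihood test, Benjamini-Hochberg adjusted over all tested genes), where 2.8% of tested genes were called. At an unadjusted p under 0.05 there were 4 members, where 18.6% of tested genes were under it. DESeq2 called 1 member (TPM2) among 650 genes in all. Libraries of the 2 groups did not overlap, with XL413 higher, for ACTA2, MYL9, TPM1 and TPM2, or 4 of 9, where 13% of tested genes were that way; the members' median log2 change was 0.26, against 0.00 over all tested genes.

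TPM1 and TPM2 encode tropomyosins, coiled rods that lie along the actin filament. TPM2 was at 290, 290 and 307 CPM in DMSO replicates 1, 2 and 3, and at 333, 342 and 329 in XL413. All 3 XL413 libraries were above all 3 DMSO libraries. The log2 change was 0.18 ± 0.05 (SE, 95% interval 0.06 to 0.29, adjusted p = 0.0878 in edgeR). In the 6 libraries of these groups fitted alone the adjusted p was 0.0037, and 2 of 13 alternative fits passed, within a range of 0.0037 to 0.268. TPM1 was at 212, 217 and 216 CPM in DMSO and 231, 238 and 229 in XL413, again without overlap. Its log2 change was 0.11 ± 0.04 (95% interval 0.04 to 0.19, adjusted p = 0.106 in edgeR).

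ACTA2 encodes the alpha actin of vascular smooth muscle and myofibroblasts. It was at 7.46, 8.16 and 8.04 CPM in DMSO replicates 1, 2 and 3, and at 10.6, 10.0 and 9.21 CPM in XL413. The XL413 libraries were all higher, with the highest value in replicate 1, the library of highest skeletal muscle score (3.08) in the series. The log2 change was 0.33 ± 0.10 (95% interval 0.12 to 0.54, adjusted p = 0.0804 in edgeR). It passed in 1 of 13 alternative fits, the 6 libraries alone (adjusted p = 0.0257, against a range of 0.0257 to 0.224), and was 0.25 with the skeletal muscle score as a covariate.

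OF1 alone against DMSO asks what BRPF bromodomain inhibition did. CNN2 was the only one of 9 tested members to pass, and it fell; 1.15% of tested genes were called, of which 0.58% rose and 0.567% fell, as shares of all tested. CNN2 encodes calponin 2, which binds actin filaments in non-muscle cells as well as smooth muscle. It was at 71.9, 77.9 and 76.9 CPM in DMSO replicates 1, 2 and 3, and at 64.8, 66.2 and 64.2 CPM in OF1. All OF1 libraries were below all DMSO libraries. CNN2 fell by 0.22 ± 0.04 on the log2 scale, 0.861-fold (95% interval -0.30 to -0.14, adjusted p = 0.012 in edgeR). With the skeletal muscle score as a covariate the change was -0.22 (adjusted p = 0.0297). The call was lost without DMSO replicate 2 or 3 or OF1 replicate 3, at -0.19, -0.21 and -0.21, and adjusted p over the 13 alternative fits ran from 0.000236 to 0.0989. CNN3, its acidic paralog, fell as well, by 0.15 ± 0.03 (adjusted p = 0.0237 in edgeR), but did not pass with the skeletal muscle score (-0.15, adjusted p = 0.0784).

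Among members that did not pass with OF1, ACTA2 was at 8.33, 9.21 and 9.64 CPM in OF1 replicates 1, 2 and 3. All of these were above the DMSO libraries, a pattern that 10.2% of tested genes had. The log2 change was 0.20 ± 0.10 (95% interval -0.01 to 0.41, adjusted p = 0.375 in edgeR). TPM1, at 194, 209 and 211 CPM in OF1, lay below all DMSO libraries with a log2 change of -0.07 ± 0.04, where 11.8% of tested genes lay below. The 9 tested members had a median log2 change of -0.04, against 0.00 over all tested genes.

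The combination against DMSO asks what both inhibitors did together. Of 9 tested members 3 fell (FLNC, MYL9 and CNN2) and 6 did not pass; 10.7% of all tested genes were called, 5.65% rose and 5.07% fell. Beside them 5 of 23 tested skeletal muscle genes and 10 of 14 fibroblast genes fell. Libraries of the combination lay below all DMSO libraries for 4 of 9 members (FLNC, MYL9, CNN2 and ACTA2), where 13.8% of tested genes did so. The members' median log2 change was -0.32, against -0.00 over all tested genes.

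FLNC encodes filamin C, the actin cross-linker of striated muscle. It was at 26.8, 26.6 and 36.5 CPM in DMSO replicates 1, 2 and 3, at 38.5, 36.3 and 33.7 in XL413, at 25.6, 40.7 and 37.9 in OF1, and at 21.2, 6.70 and 6.14 CPM in the combination. Combination replicates 2 and 3 were far below replicate 1, which was itself below the other 9 libraries. FLNC fell by 1.41 ± 0.32 on the log2 scale, 0.375-fold (95% interval -2.10 to -0.73, adjusted p = 0.0125 in edgeR). Fitted with combination replicate 1 alone, the log2 change was -0.50 (adjusted p = 0.202), and with the skeletal muscle score as a covariate it was -0.74 (adjusted p = 0.209). The call was also lost without DMSO replicate 3 (-1.25) or combination replicate 2 (-1.13), and over the 14 alternative fits adjusted p ran from 1.42e-05 to 0.209.

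MYL9 encodes the regulatory light chain of smooth muscle myosin, whose phosphorylation starts contraction. It was at 12.3, 15.3 and 14.5 CPM in DMSO replicates 1, 2 and 3, at 18.4, 15.8 and 16.2 in XL413, at 12.03, 12.5 and 14.9 in OF1, and at 12.2, 8.69 and 10.3 CPM in the combination. The combination lay just below the lowest DMSO library in replicate 1 and further below in replicates 2 and 3. MYL9 fell by 0.44 ± 0.12 on the log2 scale, 0.738-fold (95% interval -0.69 to -0.18, adjusted p = 0.0311 in edgeR). It passed in 7 of 14 alternative fits; with replicate 1 alone it was -0.20 (adjusted p = 0.455) and with the skeletal muscle score -0.16 (adjusted p = 0.544), within a range of 0.00643 to 0.544. The call was also lost in the 6 libraries alone (-0.44) and without DMSO replicate 2 (-0.37), DMSO replicate 3 (-0.42), combination replicate 2 (-0.32) or combination replicate 3 (-0.43).

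CNN2 in the combination was at 67.3, 69.0 and 68.0 CPM in replicates 1, 2 and 3, below all DMSO libraries and close to each other. CNN2 fell by 0.15 ± 0.04 on the log2 scale, 0.902-fold (95% interval -0.23 to -0.07, adjusted p = 0.0197 in edgeR). With combination replicate 1 alone the change was as large, -0.17, but did not pass (adjusted p = 0.0856), and with the skeletal muscle score it was -0.13 (adjusted p = 0.24, in a range of 0.0118 to 0.24). The call was also lost in the 6 libraries alone (-0.15) and without DMSO replicate 2 (-0.13) or 3 (-0.14).

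ACTA2 and TAGLN did not pass against DMSO. ACTA2 was at 7.30, 5.58 and 6.14 CPM in combination replicates 1, 2 and 3, all below the DMSO libraries, with a log2 change of -0.32 ± 0.10 (95% interval -0.53 to -0.10, adjusted p = 0.0577 in edgeR). TAGLN encodes transgelin (SM22 alpha), an actin-bundling protein and a classical early marker of the smooth muscle program. It was at 12.3, 13.5 and 14.5 CPM in DMSO and at 12.5, 7.62 and 9.54 CPM in combination replicates 1, 2 and 3. Replicate 1 lay among the DMSO libraries and the other two below them. The log2 change was -0.45 ± 0.16 (95% interval -0.78 to -0.11, adjusted p = 0.0855 in edgeR). TAGLN passed in 3 of 14 alternative fits and ACTA2 in 1. Without combination replicate 1 both passed, at -0.43 for ACTA2 (adjusted p = 0.011, in a range of 0.011 to 0.719) and -0.65 for TAGLN (adjusted p = 0.0112, in a range of 0.0112 to 0.998).

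CALD1, TPM1 and TPM2 did not pass in the combination, and their intervals were narrow. CALD1 encodes caldesmon, which binds actin, tropomyosin and calmodulin and restrains myosin. It was at 131, 131 and 130 CPM in DMSO and at 137, 130 and 125 CPM in the combination, with overlap. Its log2 change was -0.00 ± 0.04 (95% interval -0.09 to 0.08). TPM1 had 0.03 ± 0.04 (-0.05 to 0.11), and TPM2 had 0.04 ± 0.05 (-0.07 to 0.15), with its highest combination value, 329 CPM, in replicate 3. CNN1 gave -0.62 ± 0.51 with an interval of -1.70 to 0.46, so a change was not detectable at 4 to 10 counts per combination library.

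**Figure D2:**
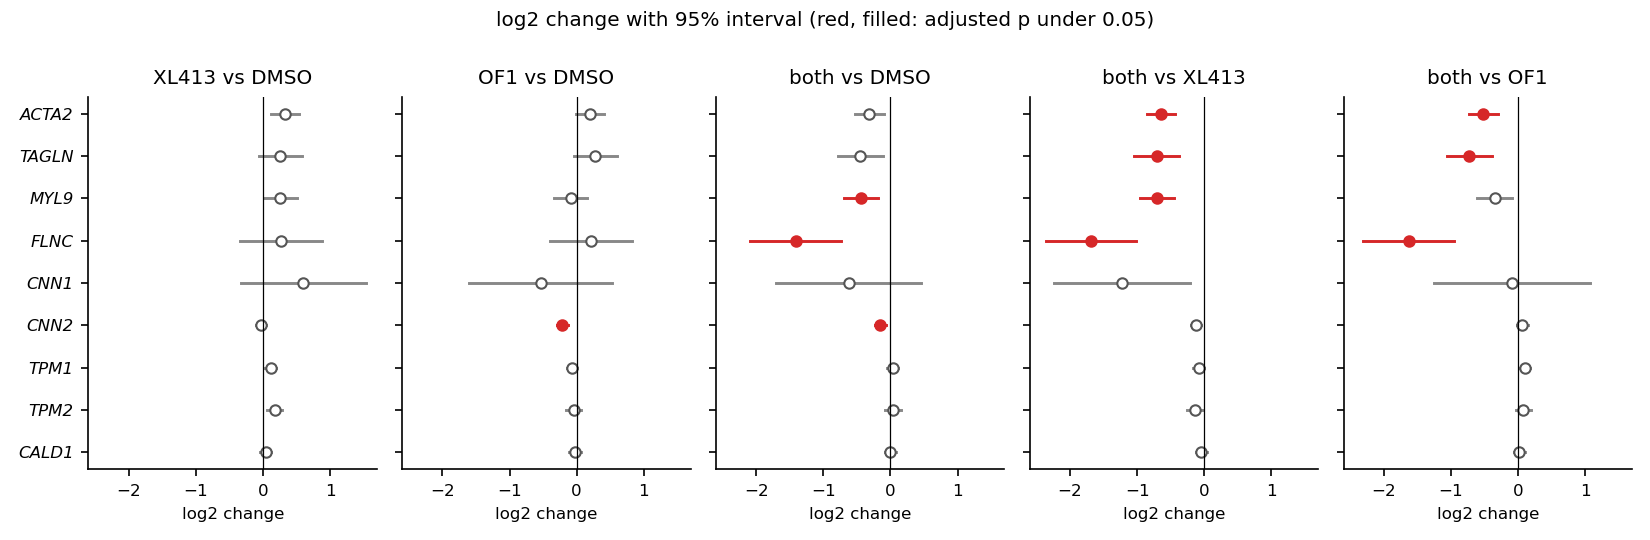
log2 change (horizontal axes) of the 9 tested members in 5 comparisons, with 95% intervals; both is the combination, and filled red points passed at adjusted p under 0.05. The 4 genes at the top lie left of 0 against both single inhibitors, while CNN2, TPM1, TPM2 and CALD1 lie within 0.22 of 0 throughout.

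The combination against XL413 shows OF1 added to XL413. ACTA2, TAGLN, MYL9 and FLNC fell, 4 of 9 tested members, and 5 did not pass; 3.41% of all tested genes were called, 1.06% rose and 2.35% fell. Libraries of the combination lay below all XL413 libraries for 6 of 9 members and above them for 0, where 10.4% and 8.99% of tested genes did so. Log2 changes were below 0 for 9 of 9 tested members, with a median of -0.65 against 0.01 over all tested genes. This comparison and the one with DMSO share the combination libraries.

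ACTA2 fell by 0.65 ± 0.10 on the log2 scale against XL413, 0.638-fold (95% interval -0.86 to -0.44, adjusted p = 0.00223 in edgeR), and passed in 12 of 14 alternative fits. MYL9 fell by 0.70 ± 0.12, 0.616-fold (-0.95 to -0.45, adjusted p = 0.00457), and also passed in 12 of 14. TAGLN, at 18.9, 15.5 and 13.8 CPM in XL413 replicates 1, 2 and 3, fell by 0.71 ± 0.16, 0.612-fold (-1.04 to -0.38, adjusted p = 0.022), and passed in 9 of 14. It lost its call without XL413 replicate 1 (-0.57) or 2 (-0.73) or combination replicate 2 (-0.55). FLNC fell by 1.68 ± 0.32, 0.311-fold (-2.36 to -1.01, adjusted p = 0.00986), passed in 11 of 14 and lost its call without combination replicate 2 (-1.40).

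The same 4 genes lost their calls against XL413 in the fit with combination replicate 1 alone and in the fit with the skeletal muscle score. In the former the log2 changes were -0.44 for ACTA2, -0.37 for TAGLN, -0.46 for MYL9 and -0.77 for FLNC, at adjusted p of 0.0962, 0.285, 0.119 and 0.0948. A single library then stands for the combination and is assumed to vary like the other groups. With the skeletal muscle score as a covariate they were -0.34, -0.09, -0.33 and -0.77, at adjusted p of 0.577, 0.978, 0.804 and 0.816. That covariate differs between the 2 groups, and the fit called 33 genes in all, where 524 were called without it. Over all 14 alternative fits the adjusted p ran from 1.15e-05 to 0.577 for ACTA2, 0.000329 to 0.978 for TAGLN, 3.62e-06 to 0.804 for MYL9 and 3.69e-06 to 0.816 for FLNC. Beside them 15 of 23 tested skeletal muscle genes fell in this comparison, among them TNNI1, a slow fibre troponin, and 9 of 14 fibroblast genes, among them COL1A1. With the skeletal muscle score COL1A1 was at -0.99 and TNNI1 at -0.04. For combination replicate 1 alone they were at -0.93 and -1.91.

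The combination against OF1 shows XL413 added to OF1. ACTA2, TAGLN and FLNC fell, 3 of 9 tested members, and 6 did not pass; 5.5% of all tested genes were called, 2.79% rose and 2.71% fell. Libraries of the combination lay below all OF1 libraries for 3 of 9 members and above them for 2 (CNN2 and TPM1), where 11.3% and 11.2% of tested genes did so. Beside them 21 of 23 tested skeletal muscle genes and 10 of 14 fibroblast genes fell. ACTA2 fell by 0.52 ± 0.10 on the log2 scale (adjusted p = 0.0113 in edgeR), TAGLN, at 13.7, 16.8 and 18.3 CPM in OF1, by 0.72 ± 0.16 (adjusted p = 0.0184), and FLNC by 1.62 ± 0.32 (adjusted p = 0.0121). MYL9 gave -0.35 ± 0.12 and did not pass (adjusted p = 0.104); it turned to 0.06 with the skeletal muscle score. All 3 fallen genes lost their calls without combination replicate 2, at -0.43, -0.56 and -1.34. They also lost them in the 6 libraries alone, where the changes were as large (-0.52, -0.72 and -1.62) and adjusted p was 0.071, 0.0719 and 0.0803. TAGLN lost its call without OF1 replicate 2 (-0.70) or 3 (-0.63), and FLNC without OF1 replicate 2 (-1.50). For combination replicate 1 alone the changes were -0.31 for ACTA2, -0.38 for TAGLN and -0.71 for FLNC, and with the skeletal muscle score -0.19, -0.06 and -0.60, and none passed.

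**Figure D3:**
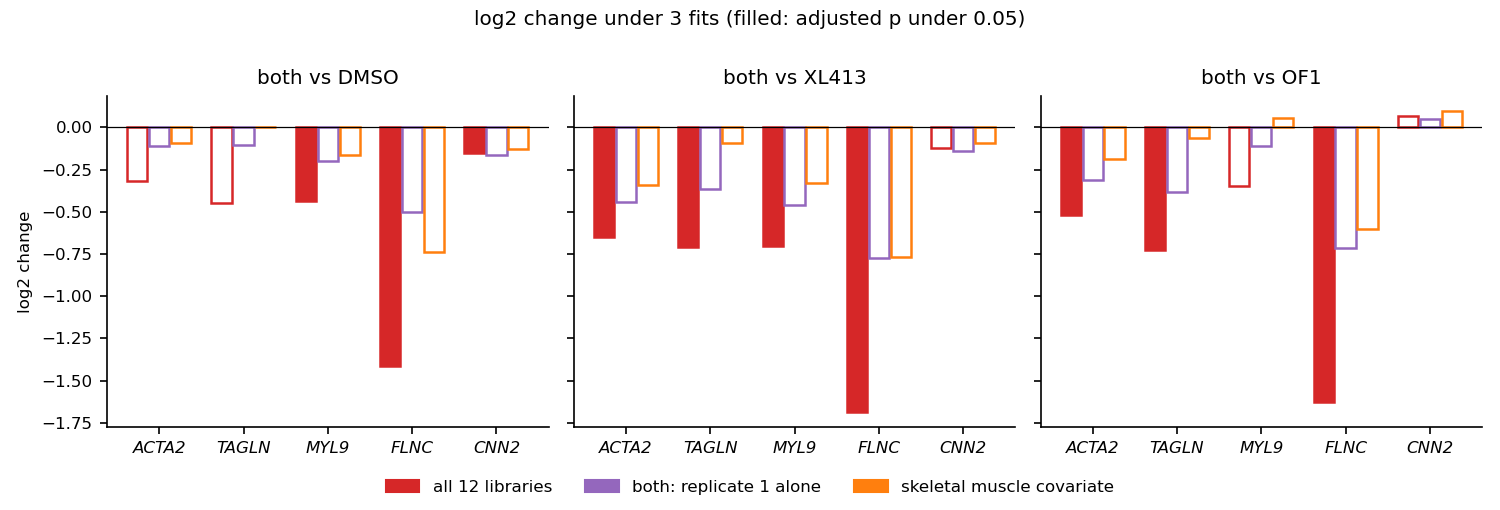
log2 change (vertical axis) of 5 members in the 3 comparisons of the combination, fitted on all 12 libraries, with combination replicate 1 alone, and with the skeletal muscle score as covariate; filled bars passed at adjusted p under 0.05. Against XL413, FLNC goes from -1.68 to -0.77 in both other fits, and TAGLN from -0.71 to -0.37 and -0.09.

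Non-additivity, the log2 change of the combination minus the sum of the single changes, was -0.85 ± 0.14 for ACTA2 (adjusted p = 0.0869 in edgeR), -0.99 ± 0.22 for TAGLN (0.118), -0.61 ± 0.17 for MYL9 (0.165) and -1.89 ± 0.43 for FLNC (0.118). ACTA2 was the member whose libraries all lay above DMSO with either inhibitor and all below it with both. edgeR called 0 of 15353 genes (0%), with 1566 genes and 4 members at an unadjusted p under 0.05, while DESeq2 called 101 genes, ACTA2 and TAGLN among them. Without combination replicate 1 edgeR called 362 genes and all 4 of these members, and with replicate 1 alone it called 1 gene and 0 members. With the skeletal muscle score the 4 values were -0.43, -0.16, -0.11 and -0.63, and no gene was called. CNN2, TPM1, TPM2 and CALD1 were at 0.09, -0.02, -0.10 and -0.02, each with a 95% interval that held 0.

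Across the 12 libraries ACTA2, TAGLN, MYL9 and FLNC varied together. Pearson's r of log2 CPM was 0.83 to 0.96 over their 6 pairs, and 0.91 between TPM1 and TPM2. It was 0.04 to 0.52 between the first 4 genes and CNN2, TPM1, TPM2 or CALD1. The points share libraries, scaling and treatment, and combination replicates 2 and 3 stand apart for the first 4 genes, so these values are descriptive.

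Nearest in pattern to FLNC over the 12 libraries was CDH15 (r = 0.99), the cadherin of muscle precursors, which fell from 3.62 ± 0.69 CPM in DMSO to 1.47 ± 1.3 in the combination (adjusted p = 0.0434 in edgeR). KLHL41, a sarcomere protein of skeletal muscle, was nearest to TAGLN (r = 0.98), HTRA1, a secreted protease, to ACTA2 (0.97), and LTBP2, a matrix protein, to MYL9 (0.97). TNS3, an actin-linked adhesion protein, was nearest to CNN2 (r = 0.97), and it fell with OF1 by 0.21 ± 0.03 (adjusted p = 0.00283 in edgeR). Each nearest gene was picked for the highest r among tested genes over these same libraries. A change shared with its member follows from that choice and is not a separate result. The other members had as nearest genes FAM86FP for CNN1 (0.91), ATXN10 for TPM1 (0.94), PTOV1-AS2 for TPM2 (0.94) and ZNF512 for CALD1 (0.89). The mean standardised profile of the 9 tested members had ADAMTS7, RRAS2, OLFML3 and MRC2 among its nearest genes, at r of 0.92 to 0.94.

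**Figure D4:**
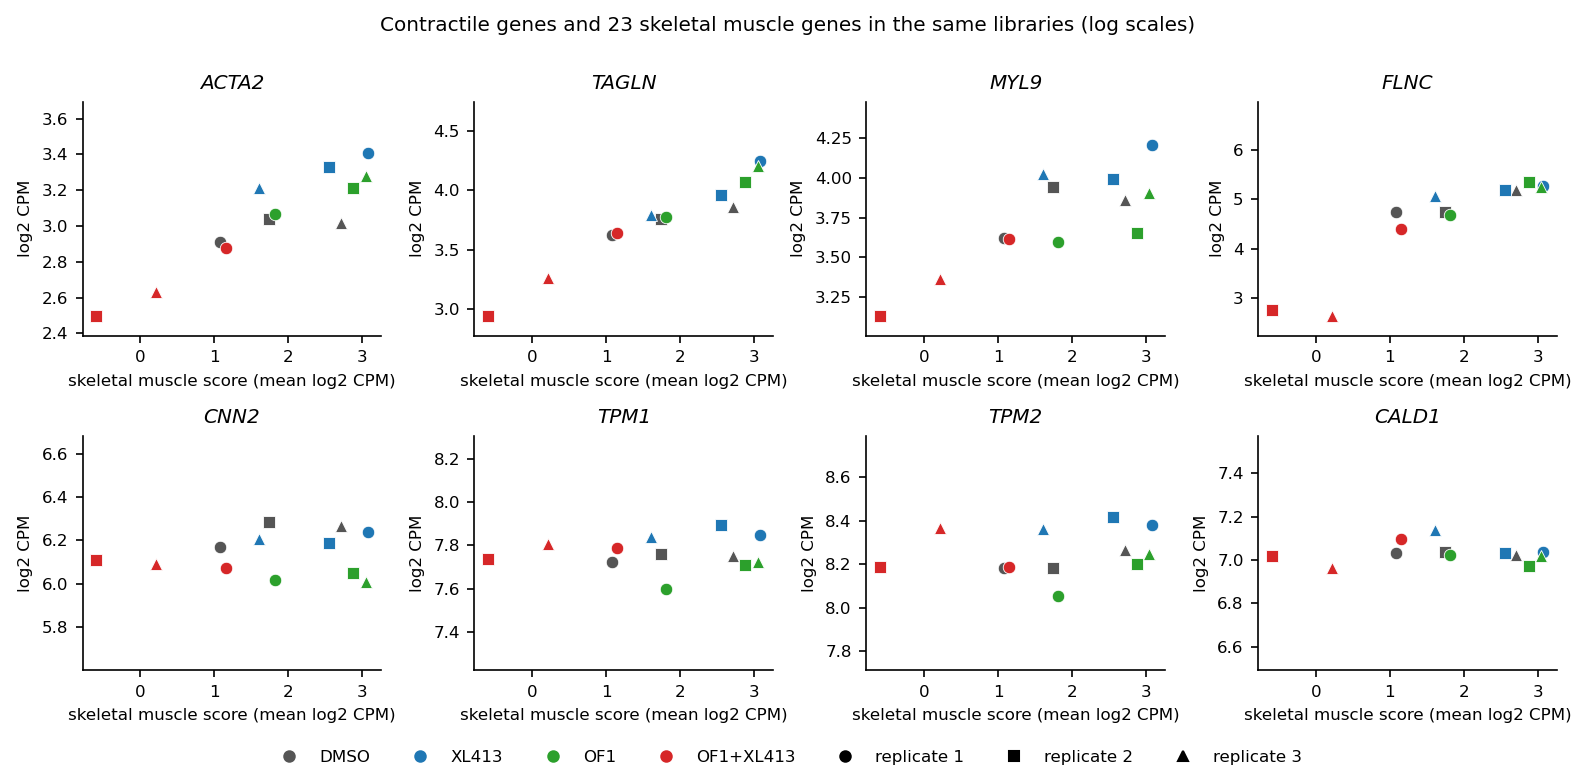
log2 CPM of 8 members (vertical axes) against the skeletal muscle score, the mean log2 CPM of 23 skeletal muscle genes (horizontal axes), in the 12 libraries; colours mark treatments and symbols replicate numbers. Combination replicates 2 and 3, at scores of -0.60 and 0.21, hold the lowest values of ACTA2, TAGLN, MYL9 and FLNC, and not of CNN2, TPM1 or TPM2.

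Inside groups the libraries at the ends of the score compared as follows. In OF1, replicate 1 had the lowest skeletal muscle score (1.82, against 2.88 and 3.05) and the lowest ACTA2, TAGLN, MYL9 and FLNC. OF1 replicate 3 had the highest score and the highest ACTA2, TAGLN and MYL9, but FLNC was highest in replicate 2 (40.7 against 37.9 CPM). In XL413, replicate 1 had the highest score (3.08, against 2.55 and 1.61) and the highest ACTA2, TAGLN, MYL9 and FLNC. XL413 replicate 3 had the lowest score and the lowest ACTA2, TAGLN and FLNC, but MYL9 was lowest in replicate 2 (15.8 against 16.2 CPM). In DMSO, replicate 3 had the highest score (2.71, against 1.08 and 1.74) and the highest TAGLN and FLNC, but not the highest ACTA2 or MYL9. DMSO replicate 1 had the lowest score and the lowest ACTA2, TAGLN and MYL9, but not the lowest FLNC. In the combination, replicate 1 had the highest score and the highest ACTA2, TAGLN, MYL9 and FLNC. Combination replicate 2 had the lowest score and the lowest ACTA2, TAGLN and MYL9, but not the lowest FLNC.

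SRF itself was not called in any comparison. SRF was at 62.7 ± 1.1 CPM in DMSO, 63.1 ± 1.6 in XL413, 63.0 ± 2.8 in OF1 and 62.6 ± 4.1 in the combination (SD, n = 3), and its log2 change against DMSO in the combination was -0.00 ± 0.05 (95% interval -0.10 to 0.10). Of 17 tested genes of SRF, its cofactors and regulators of actin assembly, 0 were called with XL413 alone in edgeR and 0 by DESeq2. At an unadjusted p under 0.05 in edgeR there were 3 of the 17, near the share of all tested genes (18.6%). With OF1, 2 of 17 fell: LIMK1, the kinase that blocks actin disassembly, by 0.28 ± 0.05 (adjusted p = 0.00976 in edgeR), and MYLK, the kinase that phosphorylates MYL9, by 0.25 ± 0.05 (adjusted p = 0.0364), where 1.15% of all tested genes were called. Fits that left out 1 library called 1 gene of the list, or 0 without OF1 replicate 2. In the combination 2 of 17 fell against DMSO, RHOB and DIAPH1, and ARHGEF2 rose, where 10.7% of all tested genes were called. LIMK1 was not called there. Against OF1, LIMK1 was among 2 of the 17 that rose in the combination, where 2.79% of all tested genes rose. In the 6 libraries of that comparison alone, 0 of the 17 were called. RHOB fell by 0.29 ± 0.05 against DMSO (adjusted p = 0.00371), by 0.32 ± 0.05 against XL413 and by 0.21 ± 0.05 against OF1. Fitted with combination replicate 1 alone, or with the skeletal muscle score, 0 of these pathway genes passed in any comparison of the combination. RHOB was then at -0.19 and -0.18 against DMSO, -0.22 and -0.16 against XL413, and -0.11 and -0.04 against OF1. LIMK1 kept its call with OF1 under the score (-0.29, adjusted p = 0.0225) and MYLK did not (-0.26, adjusted p = 0.0838).

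Other SRF targets outside the contractile set changed in both directions. Of 25 tested, XL413 lowered ACTB and raised ITGA5, OF1 lowered ACTB and ACTG1, and the combination against DMSO lowered ACTB, ACTG1, ZYX and LIMA1 and raised CSRP1 and FHL2. The shares of all tested genes called in these comparisons were 2.8%, 1.15% and 10.7%. ITGA5 did not pass with the skeletal muscle score (0.12, adjusted p = 0.0677), and 0 genes of the list rose in 5 of 6 fits that left out 1 library. ACTB, cytoplasmic beta actin, was at 3157 ± 30 CPM in DMSO and 2636 ± 55 in the combination, and fell by 0.26 ± 0.03 (adjusted p = 4.89e-05 in edgeR). ZYX, zyxin of focal adhesions, went from 150 ± 5.3 to 125 ± 2.5 CPM and fell by 0.27 ± 0.04 (adjusted p = 0.000841). ACTB, ACTG1 and ZYX kept their calls against DMSO with replicate 1 alone (-0.26, -0.17 and -0.29) and with the skeletal muscle score (-0.28, -0.15 and -0.23). LIMA1 (-0.07 and -0.11), CSRP1 (0.11 and 0.15) and FHL2 (0.10 and 0.11) lost their calls in both fits. The list's median log2 change against DMSO was 0.01 with XL413, 0.01 with OF1 and -0.00 with the combination.

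Among other members of the same gene families, CNN3, ACTB and ACTG1 fell in the combination and MYL6, MYL6B and MYL12B rose, 6 of 15 against DMSO, where 5.07% of all tested genes fell and 5.65% rose. MYL6, the essential light chain of smooth muscle and non-muscle myosin, went from 394 ± 13 to 467 ± 41 CPM and rose by 0.25 ± 0.06 (adjusted p = 0.0158 in edgeR). All 3 light chain calls were lost with replicate 1 alone, where MYL6 was at 0.14, and with the skeletal muscle score, where it was at 0.21. CNN3 lost its call in both fits too, at -0.12 in each. Of 8 tested late smooth muscle markers 3 fell against DMSO (HSPB6, DES and SYNPO2), of which DES is also on the skeletal muscle list. DESeq2 called 1 of the 8, and 0 passed in the 6 libraries alone or without DMSO replicate 2. HSPB6, a small heat shock protein of muscle, went from 4.35 ± 0.74 to 2.29 ± 0.98 CPM and fell by 0.94 ± 0.21 (adjusted p = 0.0129 in edgeR). With combination replicate 1 alone, and with the score, 0 of the 8 passed in any comparison of the combination.

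Reads of closely related or overlapping genes limit some of these values. ACTA2 and ACTG2 encode proteins nearly identical to those of ACTA1 and ACTC1. The values are RSEM expected counts, and those of ACTA2 were fractional in some libraries (248.66 in DMSO replicate 1), as where reads are divided between genes. Which genes shared those reads is not given in the sources used here. ACTA2 (chromosome 10, 88935074 to 88991337 on GRCh38.p14) overlaps FAS, with 437 to 598 counts per library, and ACTA2-AS1, with at most 9.6. TAGLN (chromosome 11, 117199294 to 117207465) overlaps PCSK7, with 1689 to 2350 counts. FLNC lies on chromosome 7 (128830406 to 128859272), MYL9 on chromosome 20 (36541519 to 36551447) and CNN2 on chromosome 19 (1026608 to 1039065).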

How the data were processed

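Poly(A) RNA of 12 A375 libraries was sequenced with strand-marking (dUTP) libraries, per the labels' protocols. Expected counts per gene, not scaled, are what the authors deposited. The submitters' processing notes name Bowtie2 2.1.0, RSEM 1.2.15 and hg38; annotation and strand setting: not given in the sources used here. Fractional entries made up 10.6% of the table, and all values were rounded to whole numbers. edgeR 4.0.16 (R 4.3.3) was run with filterByExpr, TMM factors and 1 mean per group over all 12 libraries (8 residual degrees of freedom), with quasi-likelihood F tests adjusted by Benjamini-Hochberg over 15353 genes at 0.05. Standard errors were derived from the log2 change and its F statistic. Log2 CPM values used a prior count of 2.

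The genes named are all members, up to 3 called genes per fixed list and comparison, and the nearest genes by Pearson's r, of which 1 is not reported here; further list members and gene groups were named after their values were seen. Members and lists were chosen with earlier results of these data known. Alternatives were DESeq2 1.42.0, RLE or upper-quartile factors, no filter, a replicate block, the compared groups alone, the skeletal muscle score as covariate, combination replicate 1 alone, and each library left out; those for the other lists were added after the data were seen. On simulated data for the combination against DMSO, in which 15196 genes passed the filter, 92% of genes lowered to 0.5-fold, 66% lowered to 0.77-fold, 100% raised 2-fold and 82% raised 1.3-fold were called, with 8 calls among 14996 unchanged genes. Each gene was simulated with the spread typical of its level, equal in all groups. These shares therefore do not carry over to members of large spread, such as FLNC (28.1%), CNN1 (25.1%) and TAGLN (12.6%). Replicate pairs differed by more than counting noise (12 pairs, with chi-square over its degrees of freedom between 2.33 and 13.96).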

Additional observations from a re-analysis of the deposited data

How the results depend on the processing

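Counts of called members and genes depended on which libraries were fitted, DMSO libraries included, and on the skeletal muscle score. For the combination against DMSO, 1645 genes and 3 members were called on all 12 libraries. There were 728 genes and 1 member without DMSO replicate 2, and 751 genes and 0 members without DMSO replicate 3. With the score as covariate, genes called numbered 187 for XL413 against DMSO, 61 for OF1 against DMSO, 319 for the combination against DMSO, 33 against XL413 and 9 against OF1, with 0 members called in the comparisons of the combination. With combination replicate 1 alone they numbered 857 against DMSO, 155 against XL413, 53 against OF1 and 1 for non-additivity, again with 0 members. In the 6 libraries compared alone, 1394 genes and 3 members were called for XL413 against DMSO, 878 and 1 for the combination against DMSO, and 120 and 0 against OF1. DESeq2 called 650 genes and 1 member for XL413 against DMSO, 372 genes for OF1 against DMSO, and 101 genes and 2 members for non-additivity, where no filter gave 132 genes and 3 members. Leaving out 1 library gave 86 to 287 genes and 0 to 0 members for XL413 against DMSO, 42 to 79 and 0 to 1 for OF1 against DMSO, 728 to 2113 and 0 to 5 for the combination against DMSO, 168 to 828 and 2 to 5 against XL413, 212 to 2227 and 0 to 4 against OF1, and 0 to 362 and 0 to 4 for non-additivity. The cause was not tested. RLE and upper-quartile factors changed no count of members.

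Same-numbered replicates did not pair (r of deviations from group means -0.161 to 0.199 over 18 pairs, 1 of them over 0.1). With the replicate block 361, 126, 1573, 476 and 850 genes were called in the comparisons in the order above, 2 for non-additivity, and the counts of members stayed at 0, 1, 3, 4, 3 and 0. Under the block, the late smooth muscle markers that fell in the combination against DMSO went from 3 to 1, the SRF pathway genes that fell with OF1 from 2 to 1, and the other SRF targets that rose with XL413 from 1 to 0. CNN1 and ACTG2 are limited by depth, at no more than 23 and 8 counts per library; intervals and counts near 0 reflect counting error as well as replicate spread.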
